A study of Mus musculus with 8 samples.

Results

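Interleukin-1 (IL-1) and the ligands of the Toll-like receptors are sensed by receptors that share an intracellular TIR domain, and both routes pass through the adaptor MyD88 and the IRAK kinases to NF-kB. In cartilage this route is known for raising matrix-degrading enzymes, chemokines and the enzymes of prostaglandin and nitric oxide synthesis. Its strength is limited by the antagonist encoded by *Il1rn*, which occupies the IL-1 receptor without signalling, and by IRAK-M, the product of *Irak3*, which holds back the IRAK complex. The 10 genes described here are *Il1r1*, *Il1rap* and *Il1rn* of the IL-1 receptor, *Tlr2*, *Tlr3*, *Tlr4* and the co-receptor gene *Cd14* of the Toll-like route, and *Myd88*, *Irak1* and *Irak3* downstream of both. They were picked by name out of 52325 gene identifiers, with the genotype difference in these libraries already known, so their differences between genotypes are given as descriptions without a test. Levels are in TPM, which corrects for the length of the transcripts and sets each library to the same total. All 10 genes passed the filter on low values (0.5 TPM or more in 4 libraries or more, met by 17177 genes).

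RNA came from rib (costal) chondrocytes freed by collagenase digestion from wild-type and *Mir140*-null mice, 7 d old, on a C57BL/6J background, with 4 samples of each genotype; the sources used here do not say how many mice gave a sample. The null allele was made with CRISPR/Cas9 in zygotes and removes the *Mir140* locus. The first edited animals also carried CBA/ca background, which backcrossing was to replace. The genotypes were kept as separate lines descended from heterozygous parents, so line and genotype cannot be told apart. *Mir140* encodes miR-140, the best known microRNA of cartilage, whose 3p arm occurs as isomiRs with different seeds.

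The chondrocyte label held in every library: *Col2a1*, the fibrillar collagen of cartilage, was between 34418 and 61630 TPM. *Mir140* itself was listed at 0 in every library except *Mir140*-null replicate 2, where it was 8.86 TPM. The libraries were made from poly(A) RNA, so this short precursor does not check the genotype, and null replicate 2 below means the library labelled so. That library was also the only one with *Xist* (271.7 TPM, at most 0.339 TPM in the others), and *Irak1* is on the X chromosome. The Y-linked *Ddx3y* was 0.630 TPM in null replicate 2 and 38.8 to 55.6 TPM in every other library. By these genes null replicate 2 had a female pattern and all the others, wild-type included, a male one. The labels do not give sex. Null replicates 1 and 2 stood apart in markers of fibroblasts and perichondrium. The summed TPM of these 8 markers was 718.5 and 882.4 there, 5499 and 4050 in null replicates 3 and 4, and 3224 to 6093 in wild-type libraries, and they had fewer genes at 0.5 TPM or more (15800 and 16056, against 16991 to 17950). Results are therefore also given with null replicates 3 and 4 alone. Mitochondrial transcripts took 4.06 to 6.99% of the TPM in wild-type and 8.41 to 10.1% in null libraries. In whole-cell RNA, a larger number of expressing cells and more RNA per cell cannot be told apart.

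Sequences are shown first: the isomiRs that the null mice lack, and the matches to their seeds and to NF-kB in these genes. The 3p isomiRs differ by a base at the 5′ end and therefore in the seed, bases 2 to 8, which is in capitals. The longer form is the RefSeq mature sequence (GRCm38.p6, chr8:107551288-107551308, plus strand) and the shorter is the same sequence without its first base.

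miR-140-3p.2: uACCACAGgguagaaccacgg

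miR-140-3p.1: aCCACAGGguagaaccacgg

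For every gene the longest 3′UTR in GENCODE M21 (GRCm38) was searched for the complement of bases 2 to 8 (a 7m8 match, CTGTGGT for miR-140-3p.2 and CCTGTGG for miR-140-3p.1), the same followed by A (8mer), and the complement of bases 2 to 7 followed by A (7a1, TGTGGTA and CTGTGGA). The sites of the isomiRs overlap in the letters CTGTGG. Sites of miR-140-5p, which the null mice also lack, were not searched here. *Il1rn* and *Irak3* were the 2 of the 10 genes with a 7m8 match, in both cases to miR-140-3p.1. That count is near the share of all tested genes with a 7m8 or 8mer match to it (20.2%). The matches lie near the 3′ end of each 3′UTR, at base 1735 of 1864 in *Il1rn* (chr2:24351355-24351382, plus strand for the 28 bases shown) and at base 1011 of 1067 in *Irak3* (chr10:120141687-120141714, minus strand), with the match in capitals.

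Il1rn: atcctgtgacCCTGTGGgcgtggttcac

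Irak3: agaagagttgCCTGTGGcattccaattg

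No 8mer was present in any of the 10 genes. A 7a1 match was present 3 times in *Il1r1*, 2 times in *Irak1* and 1 time in *Myd88*. The 3′UTRs of *Il1rap*, *Tlr2*, *Tlr3*, *Tlr4* and *Cd14* held no 8mer, 7m8 or 7a1 match to either 3p isomiR. Those of *Tlr2* and *Cd14* are only 148 and 233 bases long, against a median of 1157 bases over the 12981 tested genes with a complete 3′UTR. Of those genes, 30.3% had a match of any kind to miR-140-3p.1, 20.2% a 7m8 or 8mer match to it, and 24.9% a match of any kind to miR-140-3p.2. Matches are letters in a sequence, not measured binding.

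**Figure D1:**
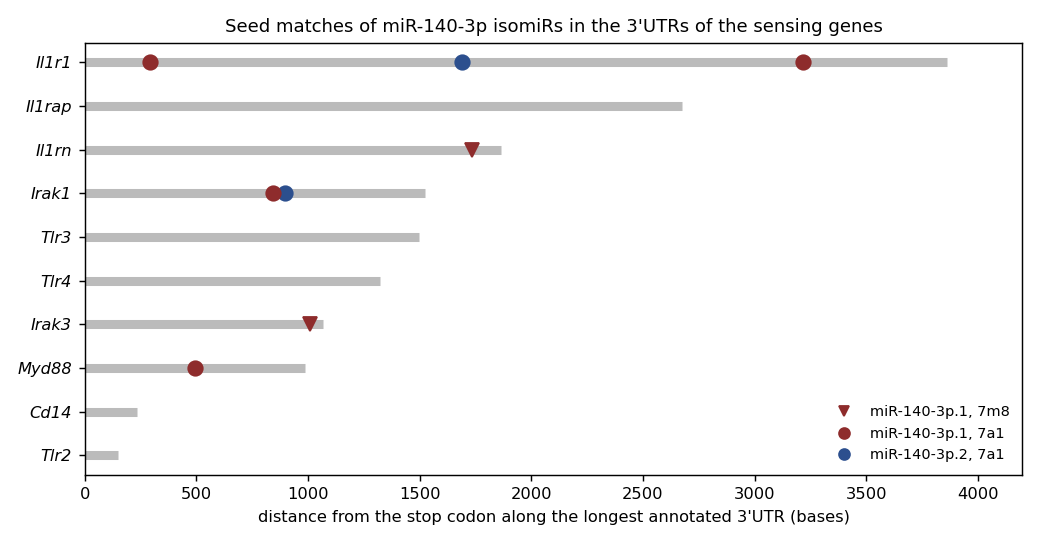
Position of seed matches to miR-140-3p.1 (dark red) and miR-140-3p.2 (blue) along the longest 3′UTR of each gene, in bases from the stop codon; triangles are 7m8 and circles 7a1 matches, and the grey bar is the 3′UTR. The 7m8 matches are in *Il1rn* and *Irak3*, and *Tlr2* and *Cd14* have the shortest 3′UTRs (148 and 233 bases).

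RefSeq promoter windows around each start site, 300 bases long, were scanned on both strands for the NF-kB consensus of 10 bases. *Tlr2* had 3 distinct positions with a match, and *Il1r1*, *Tlr3* and *Irak1* also had a match in a window. In *Il1r1* it lay in the window at chr1:40266336-40266635, while the window at the start of the gene (chr1:40224830-40225129) held none. *Il1rn*, *Il1rap*, *Myd88* and *Irak3* had no match, and *Tlr4* and *Cd14* were not scanned. These matches, too, are letters in a sequence and not measured binding. Of 27025 genes with such a window, 9.55% had a match. The clearest in *Tlr2* is a run of 11 bases that holds a match on each of 2 overlapping positions, at −173 and −172 from the start site (GRCm38.p6, chr3:83841762-83841790, minus strand, run in capitals). These distances are from the RefSeq start site. GENCODE M21 begins *Tlr2* further upstream, at base 83841767, just downstream of the run, so the match at −8 lies inside the gene in that annotation.

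Tlr2: aggacacctGGGGAATTCCCacacggagc

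Between genotypes, the levels of 6 of the 10 genes were higher in every null library than in every wild-type library: *Il1r1*, *Il1rap*, *Tlr2*, *Cd14*, *Myd88* and *Irak3*. None was lower in every null library. Over all tested genes, 15.7% were higher and 10.2% lower without overlap, 25.9% in either direction, and since the genes were chosen with this contrast in view, the count is a description of them. The median difference of the 10 genes was 0.49 on the log2(TPM + 1) scale (*Mir140*-null over wild-type), against −0.01 over all tested genes. With null replicates 3 and 4 alone it was 0.51, and 7 of the 10 genes were then higher without overlap, against 24.7% of all tested genes (38% without overlap in either direction).

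**Figure D2:**
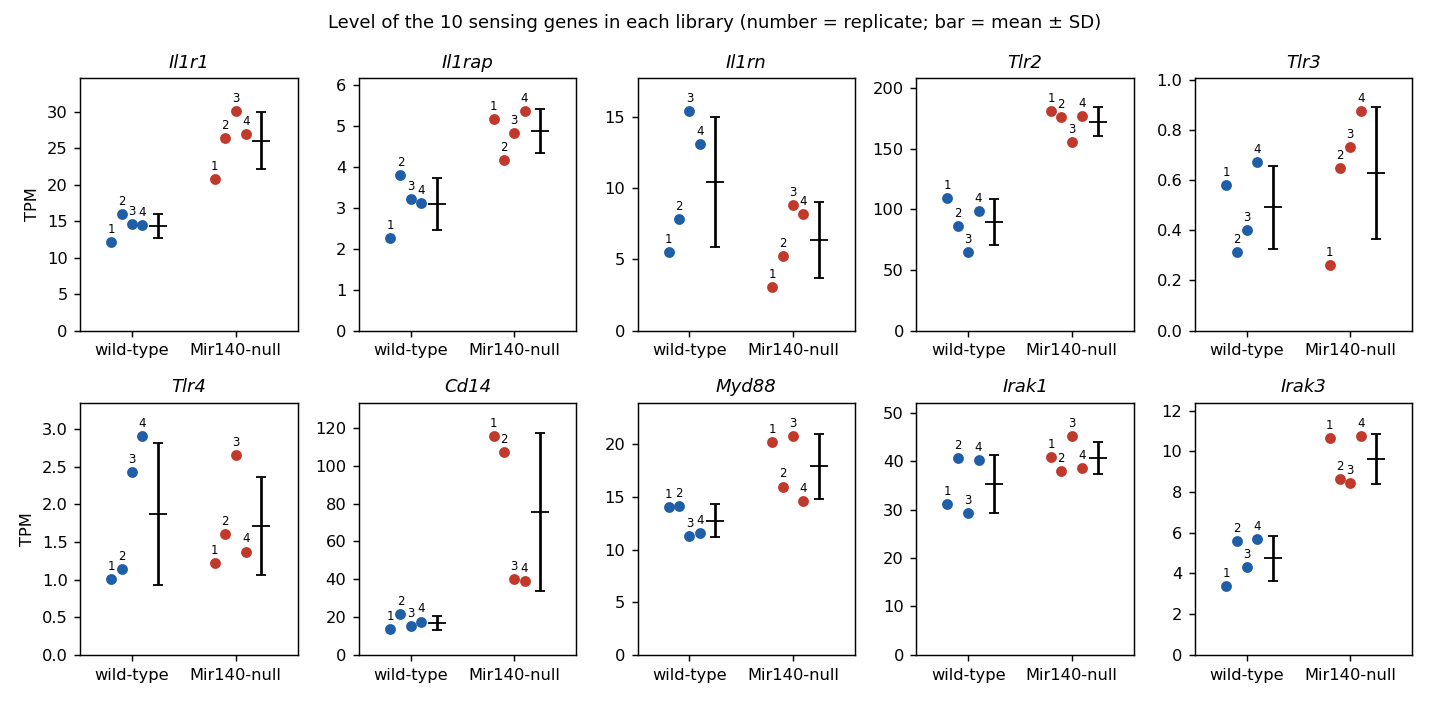
TPM of the 10 sensing genes in each library (vertical axes start at 0 and differ between panels); numbers are replicates, and bars are the mean ± SD of 4 libraries. The genotypes do not overlap for *Il1r1*, *Il1rap*, *Tlr2*, *Cd14*, *Myd88* and *Irak3*, and null replicates 1 and 2 lie far above 3 and 4 for *Cd14*.

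Transcripts of both signalling chains of the IL-1 receptor were present. *Il1r1* encodes the chain that binds IL-1, and its level was 12.1, 16.0, 14.7 and 14.5 TPM in wild-type replicates 1 to 4 and 20.7, 26.3, 30.0 and 26.9 TPM in *Mir140*-null replicates 1 to 4. The null libraries were all above the wild-type ones, and null replicate 1 was the lowest of them. The mean was 1.82 times higher in null chondrocytes, a log2 difference of 0.81 ± 0.14 (SE of the limma fit, n = 4 per genotype), and it was 1.99 times higher with null replicates 3 and 4 alone. *Gm38070*, which overlaps *Il1r1* on the same strand, could share its reads.

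*Il1rap* encodes the accessory chain that IL-1, IL-33 and IL-36 receptors all recruit. Its level was 2.26, 3.79, 3.20 and 3.12 TPM in wild-type and 5.17, 4.15, 4.81 and 5.35 TPM in null libraries. The ranges came close, with wild-type replicate 2 just under null replicate 2, but did not overlap, and the log2 difference was 0.53 ± 0.15. *Il1r1* stood at 4.23 to 5.36 times the TPM of *Il1rap* in wild-type and 4.01 to 6.34 times in null libraries, so the excess of the binding chain over the accessory chain overlapped between genotypes.

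*Il1rn*, the gene of the receptor antagonist, went the other way on average but varied widely within each genotype. It was 5.51, 7.81, 15.4 and 13.1 TPM in wild-type and 3.09, 5.26, 8.81 and 8.17 TPM in null libraries. Within each genotype replicates 3 and 4 were the high ones, and the genotypes overlapped. The log2 difference was −0.63 ± 0.37, and with null replicates 3 and 4 alone it was −0.18, so most of it rested on null replicates 1 and 2, those with few fibroblast transcripts; the part of those transcripts in it was not tested. Set against its target, the ratio of *Il1rn* to *Il1r1* TPM was 0.455, 0.488, 1.05 and 0.904 in wild-type and 0.149, 0.200, 0.293 and 0.303 in null libraries. This ratio of RNA levels was lower in every null library (at most 0.303) than in any wild-type library (at least 0.455). *Il1rn* alone overlapped between genotypes, whereas *Il1r1*, by which it is divided, did not. Protein was not measured.

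Among the Toll-like receptors these cells carried almost only *Tlr2*, whose product senses bacterial lipoproteins and has been linked to fragments of cartilage matrix. It took 92.2 to 97.3% of the summed TPM of 12 Toll-like receptor genes in wild-type and 96.0 to 98.2% in null libraries. *Tlr2* was 109.5, 85.8, 65.0 and 98.4 TPM in wild-type and 180.7, 176.3, 155.2 and 177.1 TPM in null libraries. Every null library lay far above every wild-type one, and replicate 3 was the lowest of each genotype. The mean was 1.92 times higher in null chondrocytes, a log2 difference of 0.96 ± 0.16, and 1.85 times higher with null replicates 3 and 4 alone. Spread among the null libraries was small, with an SD of 6.73% of the mean against 21.2% in wild-type.

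*Tlr4*, the receptor of bacterial lipopolysaccharide, was at a low level beside it. Its level was 1.005, 1.14, 2.43 and 2.91 TPM in wild-type and 1.22, 1.61, 2.65 and 1.37 TPM in null libraries, with full overlap. The log2 difference was −0.05 ± 0.26 and changed sign with the libraries used (−0.20 to 0.12 over the alternatives tried). *Tlr3*, the endosomal receptor of double-stranded RNA, was between 0.312 and 0.674 TPM in wild-type and between 0.260 and 0.875 TPM in null libraries. Null replicate 1 was the lowest of all 8 and null replicate 4 the highest, and the log2 difference was 0.12 ± 0.15.

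*Cd14* encodes the surface protein that hands lipopolysaccharide and lipopeptides to TLR4 and TLR2, and its level differed most between genotypes. It was 13.5, 21.4, 15.0 and 17.7 TPM in wild-type libraries and 115.9, 107.4, 40.2 and 38.9 TPM in null libraries. Null replicates 1 and 2 were the highest by far, and null replicates 3 and 4 lay nearer to the wild-type range but still above it. The mean was 4.47 times higher (log2 difference 1.94 ± 0.39) over 4 null libraries and 2.34 times higher (log2 1.20) with null replicates 3 and 4 alone. The size of this difference thus depended on the libraries with few fibroblast transcripts, and the part of that feature in it was not tested.

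*Cd14* is also a marker of monocytes and macrophages, so their other genes were read beside it. The part of these cells in the level of *Cd14* was not tested. The summed TPM of 16 macrophage markers was 24.97 to 44.8 in wild-type and 19.94 to 33.8 in null libraries. It was lowest in null replicates 1 and 2 (20.03 and 19.94). *Cd68*, which many cell types carry in lysosomes, made up most of the sum (16.0 to 37.0 TPM) and most of that gap. Its level was 16.7, 16.0, 29.2 and 29.4 TPM in null replicates 1 to 4. Of the 5 markers that could be tested, *Itgam* and *Lyz2* fell and none rose. *Ptprc* and *Adgre1* were at most 0.590 and 0.169 TPM in any library, and the complement genes *C1qa*, *C1qb* and *C1qc* at most 0.107 TPM. Other markers reached higher levels: over all libraries *Csf1r* was 0.482 to 1.08 TPM, *Laptm5* 0.464 to 1.77 TPM and *Tyrobp* at most 1.74 TPM. Neutrophil markers summed to 2.22 to 6.13 TPM in wild-type and 6.84 to 10.3 TPM in null libraries, and *Camp* was the 1 of 4 tested that rose. Most of that gap lay in *Camp* (means 1.23 TPM in wild-type and 4.15 TPM in null) and *S100a9* (1.44 and 3.22 TPM, with overlap). *Mpo* was lower in every null library (means 0.214 and 0.050 TPM), and *Ly6g* and *Elane* were at 0 in all of them. With overlap, null means were higher for *S100a8* and *Ngp* and lower for *Ltf* and *Retnlg*. With null replicates 3 and 4 alone the calls of *Itgam*, *Lyz2* and *Camp* were lost. Their means were then 0.364, 0.451 and 2.66 times those of wild-type, against 0.405, 0.267 and 3.39 times over 4 null libraries.

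*Myd88*, the adaptor of IL-1 receptors and of nearly all Toll-like receptors, was 14.1, 14.1, 11.3 and 11.5 TPM in wild-type and 20.3, 16.0, 20.8 and 14.6 TPM in null libraries. The null range began just above the wild-type one, with null replicate 4 at 14.6 TPM beside wild-type replicate 2 at 14.1 TPM. The log2 difference was 0.45 ± 0.15. *Slc22a14* overlaps *Myd88* on the same strand and *Acaa1a* on the other.

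*Irak1* and *Irak3* act at the same complex with opposite sense, as the signalling kinase and as the brake IRAK-M. *Irak1* was 31.1, 40.7, 29.2 and 40.3 TPM in wild-type and 40.9, 37.9, 45.2 and 38.5 TPM in null libraries. The genotypes overlapped, with wild-type replicates 2 and 4 inside the null range. The log2 difference was 0.21 ± 0.14, and 0.24 without null replicate 2, the library with *Xist*. *Irak3* was 3.38, 5.57, 4.32 and 5.71 TPM in wild-type and 10.6, 8.64, 8.45 and 10.8 TPM in null libraries. No null library came near the wild-type range, and the mean was 2.03 times higher both over 4 null libraries and with null replicates 3 and 4 alone (log2 difference 0.90 ± 0.17 over 4). The ratio of *Irak3* to *Irak1* TPM was 0.109 to 0.148 in wild-type and 0.187 to 0.280 in null libraries, without overlap. *Tmbim4* and *Gm47009* lie across *Irak3* on the opposite strand.

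**Figure D3:**
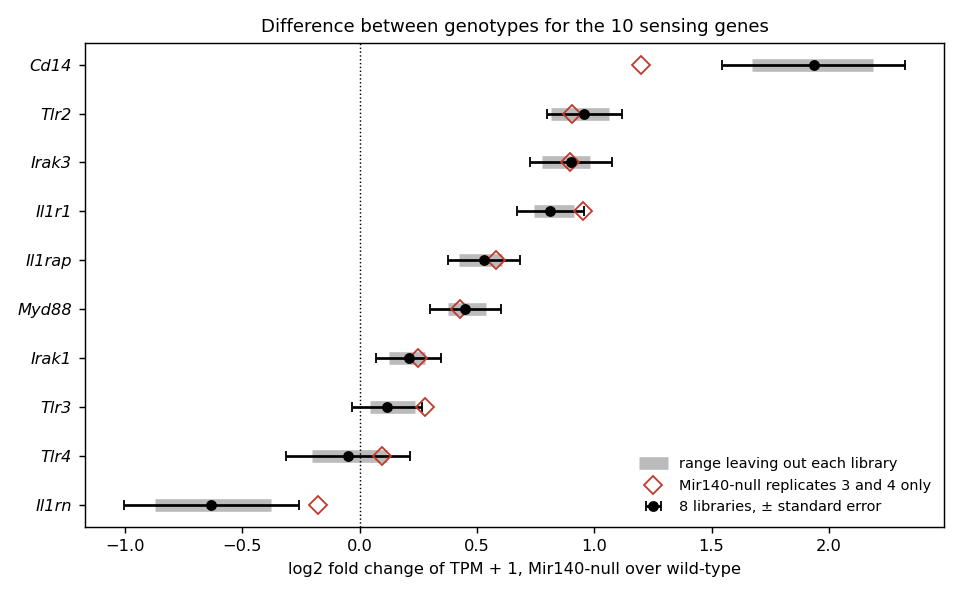
Log2 fold change of TPM + 1 (*Mir140*-null over wild-type) for each gene: black points and bars are the fit over 8 libraries ± standard error, grey bars the range when each library is left out in turn, and open diamonds the value with null replicates 3 and 4 alone. *Cd14* falls from 1.94 to 1.20 and *Il1rn* moves from −0.63 to −0.18 with those libraries, while *Tlr2*, *Irak3*, *Il1r1*, *Il1rap* and *Myd88* stay near their values over all libraries.

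Ordered by level, the wild-type cells had *Tlr2* (89.7 ± 19.1 TPM, mean ± SD, n = 4), *Irak1* (35.3 ± 6.02), *Cd14* (16.9 ± 3.49), *Il1r1* (14.3 ± 1.61), *Myd88* (12.8 ± 1.55), *Il1rn* (10.45 ± 4.57), *Irak3* (4.74 ± 1.10), *Il1rap* (3.09 ± 0.629), *Tlr4* (1.87 ± 0.945) and *Tlr3* (0.492 ± 0.165). The ranges of neighbours from *Cd14* down to *Tlr4* overlapped, whereas *Tlr2*, *Irak1* and, at the bottom, *Tlr3* were each set apart from their neighbours. In null chondrocytes *Cd14* (75.6 ± 41.8 TPM) stood above *Irak1* (40.6 ± 3.33), although their ranges overlapped, and *Irak3* (9.62 ± 1.25) stood above *Il1rn* (6.33 ± 2.66), also with overlap. *Tlr2* remained at the top (172.3 ± 11.6 TPM) without overlap with *Cd14*.

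The genes whose pattern over the 8 libraries was most like that of *Tlr2*, among 8011 protein-coding genes with a mean of at least 5 TPM, were *Tnfaip2* (Pearson r = 0.987 of log2(TPM + 1)), *Trim47* (0.985) and *Tapbp* (0.977). *Tnfaip2*, first described as induced by tumour necrosis factor, went from a mean of 130.4 to 247.1 TPM. For *Cd14* the nearest were *Preb*, *Tmem11* and *Txnrd1* (r = 0.995 for each), all highest in null replicates 1 and 2. *Preb*, for example, was 484.0 and 401.5 TPM in null replicates 1 and 2, 173.5 and 154.1 TPM in null replicates 3 and 4, and 69.5 to 84.2 TPM in wild-type. These correlations are across libraries of 2 genotypes that share the genotype difference, and are descriptions.

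Around these genes, 69 other genes of the pathway were examined, of which 49 could be tested; this list had been set with earlier results of these data known. In the limma fit 11 rose and 2 fell at an adjusted p under 0.05, and 36 did not pass. The share that rose was 22.4%, against 10.5% of all tested genes, and the share of all tested genes that fell was 6.4%; the median log2 difference of the 49 was 0.13. With null replicates 3 and 4 alone 4 rose and 1 fell, against 2.08% of all tested genes that rose and 3.3% called in either direction; over 4 null libraries 16.9% were called.

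*Il1a* and *Il1b*, which encode IL-1 itself, were at most 0.510 and 0.369 TPM in any library and were not tested. None of 4 tested ligands passed limma's adjusted threshold, and 2 had an unadjusted p under 0.05. *Il18* had means of 10.1 TPM in wild-type and 15.4 TPM in null libraries (limma adjusted p = 0.065) and *Il1f9*, of the IL-36 group, 4.35 and 3.87 TPM (adjusted p = 0.731). *Il1f6*, also of the IL-36 group, was 1.09 to 3.29 TPM in wild-type and 3.46 to 8.53 TPM in null libraries, without overlap (adjusted p = 0.064). Of the other IL-1 family receptors 1 of 5 tested rose: *Il1rl1*, encoding the IL-33 receptor ST2 and its soluble decoy, went from 92.5 ± 34.5 to 205.7 ± 21.2 TPM (log2 difference 1.24 ± 0.31, adjusted p = 0.031). This call was lost with null replicates 3 and 4 alone, where the log2 difference was 1.30. Its partner in the receptor is the product of *Il1rap*. *Il1rapl1*, a relative of the accessory chain, had means of 1.64 TPM in wild-type libraries and 1.28 TPM in null ones (adjusted p = 0.343).

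Of the 9 other Toll-like receptors, *Tlr6* and *Tlr5* were tested and neither passed; their means were 0.752 and 0.621 TPM in wild-type and 1.09 and 0.650 TPM in null libraries. The other 7 were below 0.5 TPM in every library, 2 of them at 0 throughout. Of 7 tested genes of proteins that assist the receptors, 1 rose, 1 fell and 5 did not pass. *Lbp*, the lipopolysaccharide-binding protein that loads CD14, rose from 25.8 ± 5.21 to 64.0 ± 23.9 TPM (log2 1.23 ± 0.26, adjusted p = 0.020), highest in null replicate 1 at 96.0 TPM and not past the threshold with null replicates 3 and 4 alone. *Hsp90b1*, the endoplasmic reticulum chaperone gp96 that folds Toll-like receptors and many other secretory proteins, fell from 4587 ± 620.6 to 2538 ± 136.6 TPM (log2 −0.84 ± 0.12, adjusted p = 0.007). *Ly96*, which encodes the MD-2 subunit of the TLR4 complex, was 2.87 to 5.38 TPM in wild-type and 2.48 to 3.31 TPM in null libraries (adjusted p = 0.124).

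Among adaptors, IRAK, TRAF and Pellino genes 3 of 9 rose. *Irak2*, the kinase that sustains signalling after IRAK1, was 31.8, 40.3, 28.5 and 42.4 TPM in wild-type and 91.2, 86.2, 71.4 and 76.3 TPM in null libraries (log2 1.17 ± 0.15, adjusted p = 0.006), and it kept its call with null replicates 3 and 4 alone. *Ticam1*, the adaptor TRIF of TLR3 and TLR4, rose from 2.10 to 3.35 TPM (adjusted p = 0.048). This call was lost under 13 of 17 alternatives, among them median-ratio scaling and 7 of the 8 fits that left out a library. The level of *Peli1*, a Pellino ubiquitin ligase, was 14.3 ± 1.87 TPM in wild-type and 12.2 ± 2.31 TPM in null libraries and did not pass (adjusted p = 0.380).

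Of 12 genes of the TAK1, IKK and TBK1 kinase step 4 rose. *Ikbke*, the NF-kB-inducible kinase IKK-epsilon, was between 8.26 and 11.8 TPM in wild-type and rose to 86.2, 54.9, 23.4 and 23.9 TPM in null replicates 1 to 4 (log2 1.89 ± 0.40, adjusted p = 0.021). Like *Cd14* it was highest in null replicates 1 and 2, and unlike *Lbp* it kept its call with null replicates 3 and 4 alone (log2 1.14). *Tab2*, which links ubiquitin chains to TAK1, rose from 27.3 ± 2.69 to 53.9 ± 13.5 TPM (adjusted p = 0.016), a call lost with null replicates 3 and 4 alone. *Ube2n*, the ubiquitin-conjugating enzyme Ubc13 of TRAF6, rose from 81.0 ± 2.81 to 116.8 ± 13.3 TPM (adjusted p = 0.016), a call lost with quantile normalization (log2 0.52 to 0.35). *Chuk*, encoding IKK-alpha, was 34.0 TPM in wild-type and 46.0 TPM in null libraries (adjusted p = 0.062).

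The brakes outside the IRAK family included 2 of 6 that rose. *Tollip*, which binds IL-1 receptor complexes and limits IRAK1, rose from 16.9 ± 1.36 to 26.1 ± 1.89 TPM (log2 0.60 ± 0.10, adjusted p = 0.012). *Zc3h12a*, the RNase Regnase-1, rose from 26.8 ± 4.29 to 39.6 ± 2.60 TPM (adjusted p = 0.027), a call lost under 10 of 18 alternatives, with log2 differences of 0.56 over all libraries and 0.60 with null replicates 3 and 4 alone. *Tnfaip3*, the deubiquitinase A20 and the most abundant of these brakes, was 102.5 ± 46.1 TPM in wild-type and 89.4 ± 15.2 TPM in null libraries (adjusted p = 0.780). Of 4 tested genes of IL-1 processing, *Pycard*, the inflammasome adaptor ASC, fell from 4.25 ± 0.966 to 1.62 ± 1.182 TPM (adjusted p = 0.049). The call was lost under 12 of 17 alternatives, and the log2 difference went from −1.10 to −0.58 with null replicates 3 and 4 alone, since null replicates 1 and 2 were the lowest (0.480 and 0.939 TPM). *Casp4*, an inflammatory caspase, was 31.4 TPM in wild-type and 33.7 TPM in null libraries (adjusted p = 0.743).

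**Figure D4:**
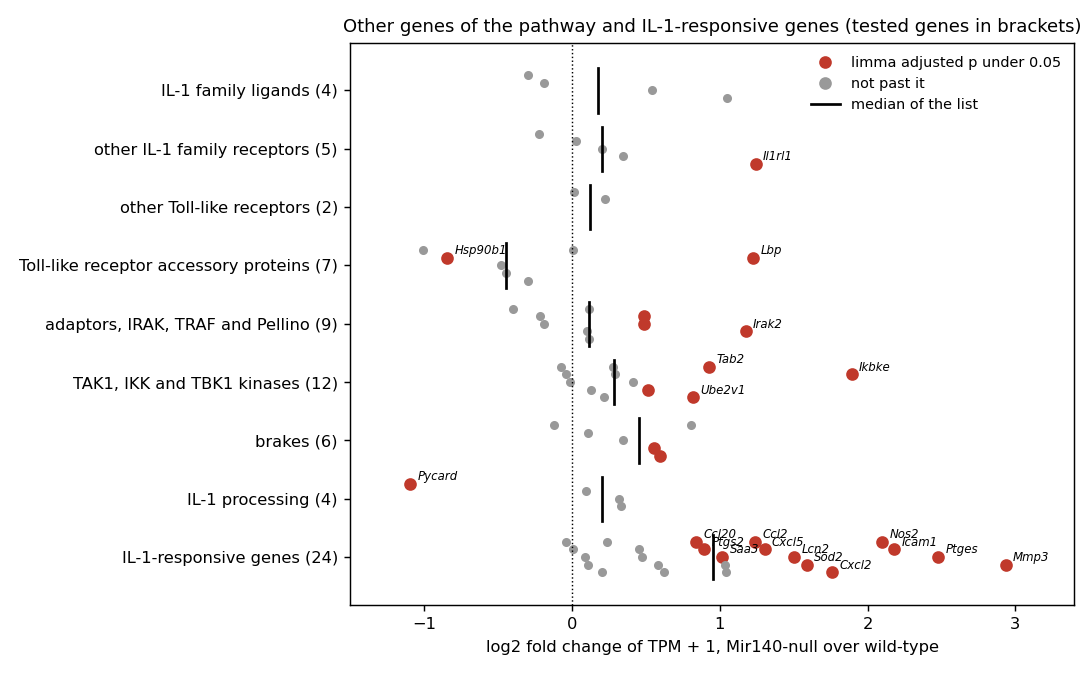
Log2 fold change of TPM + 1 (*Mir140*-null over wild-type) for the tested genes of each pathway list and of the IL-1-responsive list; red points passed limma at an adjusted p under 0.05, grey points did not, and black lines are list medians. Of 49 other pathway genes 11 rose and 2 fell, and of 24 IL-1-responsive genes 12 rose.

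Genes that chondrocytes raise after IL-1 were read next, and this list, too, was set with earlier results known. Whether their levels depended on this route was not tested. Of 24 genes, all tested, 12 rose (50% against 10.5% of all tested genes) and 12 did not pass; by limma 0 fell, also at an unadjusted p under 0.05, and the median log2 difference was 0.96. *Mmp3*, stromelysin-1, a protease of cartilage matrix, was 48.0, 101.7, 76.2 and 111.4 TPM in wild-type and 994.2, 619.0, 457.0 and 529.4 TPM in null libraries (log2 2.94 ± 0.32, adjusted p = 0.004). The lowest null library, replicate 3, was far above the highest wild-type one. *Ptges*, the inducible prostaglandin E synthase, was 21.0 to 45.2 TPM in wild-type and 381.7, 266.1, 63.8 and 97.0 TPM in null replicates 1 to 4 (adjusted p = 0.024), and its call was lost with null replicates 3 and 4 alone.

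The 2 responsive genes with the highest wild-type levels did not pass. *Cxcl1*, a neutrophil-attracting chemokine, was 1579, 845.0, 779.2 and 1016 TPM in wild-type and 2873, 3168, 1375 and 1506 TPM in null libraries (adjusted p = 0.067). Wild-type replicate 1 lay above null replicates 3 and 4. *Nfkbia*, the NF-kB inhibitor that NF-kB itself induces, was 329.7 to 511.7 TPM in wild-type and 389.4 to 543.1 TPM in null libraries (adjusted p = 0.372). The summed TPM of the 24 genes was 2190 to 3296 in wild-type, 8363 and 7702 in null replicates 1 and 2 and 3999 and 4513 in null replicates 3 and 4. With these last alone 5 of the 24 rose, *Mmp3* among them.

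**Figure D5:**
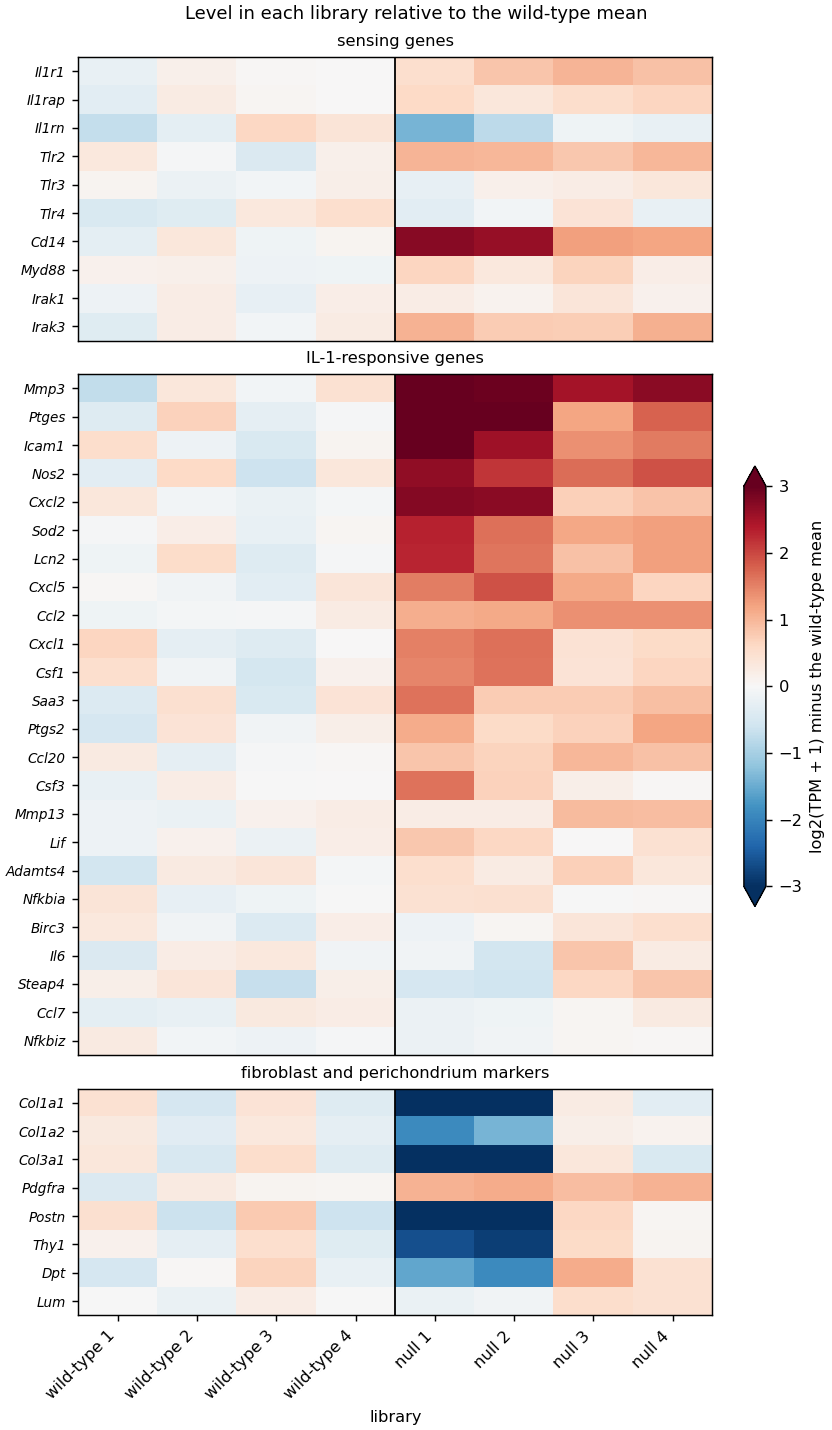
Log2(TPM + 1) of each library minus the wild-type mean (red above, blue below, darkest at the ends of the scale and beyond) for the 10 sensing genes, the 24 IL-1-responsive genes and 8 markers of fibroblasts and perichondrium; columns are libraries. *Cd14* and several responsive genes are reddest in null replicates 1 and 2, where *Col3a1* (100.02 and 104.2 TPM, against 880.1 to 1791 TPM in wild-type) and other fibroblast markers are blue.

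Markers of other cells were read beside these results. The fibroblast and perichondrium markers were low in null replicates 1 and 2, as given above, except *Pdgfra*, which rose (not called with null replicates 3 and 4 alone), and *Lum* (131.3 and 141.6 TPM there, 132.5 to 177.7 TPM in wild-type). Chondrocyte markers summed to 70919 to 87504 TPM in wild-type and 53957 to 74623 TPM in null libraries, with 1 of 14 rising and 4 falling. Of the remaining lists, tested lymphocyte (1 of 9), erythroid (5 of 7), endothelial (6 of 7), skeletal muscle (5 of 8) and osteoblast (4 of 6) markers gave no rise; 1 lymphocyte and 1 muscle marker fell. The sum of erythroid markers was 645.7 to 1854 TPM in wild-type and 256.5 to 1725 TPM in null libraries, that of endothelial markers 16.3 to 39.9 and 12.6 to 54.2 TPM, that of osteoblast markers 10.3 to 18.1 and 3.10 to 14.7 TPM, that of lymphocyte markers 1.36 to 3.01 and 1.10 to 1.76 TPM, and that of muscle markers 69.6 to 106.7 and 35.6 to 60.4 TPM, the last without overlap. Their part in the levels of the sensing genes was not tested.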

How the data were processed

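RNA-seq of 4 wild-type and 4 *Mir140*-null samples of mouse rib chondrocytes was analysed. For each library the authors deposited 1 table with a TPM value for every Ensembl gene, obtained by mapping single-end reads from a stranded mRNA kit to the mm10 transcriptome with Salmon; the submitters' processing notes also name FastQC 0.11.7 and DESeq2. The step that summed transcripts per gene, and whether strand was used, are not given in the sources used here. TPM hold the scaling by length and library total and no later normalization, so the depth per library is unknown, no counting interval was computed, and the count model of the study could not be run. Each library lists 52325 identifiers (540 repeated lines were dropped), of which 99.8% are in GENCODE M21, and no 2 libraries were identical. Groups and replicate numbers came from the labels; nothing says more of the replicates than that they are separate samples, so p-values measure the spread between these samples.

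Genes that reached 0.5 TPM in 4 libraries or more were tested with limma 3.58.1 (R 4.3.3) on log2(TPM + 1) with a mean-variance trend, two-sided, with Benjamini-Hochberg adjustment over 17177 genes and calls at an adjusted p under 0.05. Fold changes on this scale understate those of low genes. The fit was checked on simulated data. No test was run on the 10 genes themselves. 3′UTRs were built from exons and stop codons of GENCODE M21; microRNA and promoter sequences came from RefSeq (GRCm38.p6), where promoter windows of 8 of the 10 genes matched. Python 3.11.15 with NumPy 2.4.6, pandas 2.3.3 and matplotlib 3.10.9 did the rest.

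The 10 genes and all gene lists were chosen with earlier results of these data known. Named in the text were the 10 genes, the 2 highest and 2 lowest called genes and the 2 most abundant genes of each pathway and response list, abundant cell markers, and the 3 genes most like *Tlr2* and *Cd14*. *Il1a*, *Il1b*, *Il1f6*, *Ly96*, *Lyz2*, *Ptprc*, *Adgre1*, *C1qa*, *C1qb*, *C1qc*, *Pdgfra* and *Lum* were added after their values were seen. So were *Csf1r*, *Laptm5*, *Tyrobp*, *S100a8*, *Mpo*, *Ly6g*, *Elane*, *Ngp*, *Ltf* and *Retnlg*. The alternatives were a pseudocount of 0.1, no filter, a mean of at least 5 TPM, median-ratio, quantile and nuclear protein-coding scaling, 1 factor from residuals, the replicate block and leaving out each library; after seeing the data, null replicates 3 and 4 alone and median-ratio scaling on genes of at least 5 TPM were added.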

Additional observations from a re-analysis of the deposited data

Results flagged for a closer look

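In 69 groups of 4 libraries, covering the 10 genes, the named pathway and responsive genes and *Xist*, a single library was looked for whose gap to its neighbour exceeded Dixon's critical value; chance gives about 1 in 20. *Tnfaip3* was 171.5 TPM in wild-type replicate 1 and 75.3 to 84.3 TPM in the other wild-type libraries. *Xist* was 271.7 TPM in *Mir140*-null replicate 2 alone, where the Y-linked *Ddx3y* was 0.630 TPM against 38.8 to 55.6 TPM in the other 7 libraries. *Mir140*, outside the comparisons, was 8.86 TPM in that same library and listed at 0 in all the others, wild-type included. None of the 10 sensing genes had such a library.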

How the results depend on the processing

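Of the 10 sensing genes, *Tlr4* changed sign between alternatives (log2 −0.20 to 0.12); *Il1rn* stayed negative (−0.87 to −0.18) and the other 8 positive, *Cd14* between 1.20 and 2.19. Their median, 0.49, was 0.81 at a mean of at least 5 TPM, which leaves 7 of the genes, and 0.37 with median-ratio scaling on genes of at least 5 TPM. Over all tested genes 1797 were called higher and 1100 lower (62.0% higher). Scaling on genes of at least 5 TPM gave 1094 and 1750 (38.5% higher, with the median of all genes at −0.11 against −0.01), and the filter at a mean of 5 TPM 605 lower among calls of which 73.1% were higher. No filter gave 977 higher and 539 lower, the residual factor 2016 lower, and null replicates 3 and 4 alone 357 and 210. Of the other pathway genes, 11 higher and 2 lower, no filter left 7 higher and null replicates 3 and 4 alone 4; 1 was lower in each of these, with the pseudocount of 0.1, at a mean of 5 TPM and with nuclear protein-coding scaling. Of the IL-1-responsive genes, 12 higher, no filter left 7 and null replicates 3 and 4 alone 5. The cause of these moves was not tested.

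Leaving out each library gave 779 to 1553 higher and 419 to 1214 lower genes, 4 to 10 higher and 1 to 2 lower pathway genes, 6 to 14 higher and 0 lower responsive genes, and a median of the 10 genes from 0.45 to 0.55. Pathway and responsive genes called higher were 4 and 7 without null replicate 2, 5 and 6 without wild-type replicate 3, 7 and 8 without null replicate 1, 8 and 7 without wild-type replicate 4, and 9 and 8 without wild-type replicate 1. Of the 17 called genes named in the text, *Irak2*, *Tollip*, *Hsp90b1* and *Mmp3* kept their calls under every alternative run; 13 lost it under at least 1, most often *Ticam1*, *Pycard* and *Zc3h12a*, and none reversed. Calls were lost on leaving out null replicate 2 or wild-type replicate 3 for *Ikbke*, either of these or wild-type replicate 4 for *Lbp*, these 3 or wild-type replicate 1 for *Ptges*, and in 5 of 8 such fits for *Il1rl1*.

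Replicate numbers showed no sign of pairing: deviations of same-numbered libraries correlated at 0.03, 0.02, 0.07 and −0.01, and those of differently numbered ones at −0.085 to 0.072. The labels do not say whether libraries were paired, and correlations this low cannot exclude it. A replicate block gave 671 higher and 454 lower genes in all, and 6 higher and 1 lower among the other pathway genes, and ended the calls of *Ticam1*, *Zc3h12a*, *Pycard*, *Ube2n*, *Camp*, *Itgam* and *Lyz2*. Depth is unknown, and the number of libraries limits the precision.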
